A study of Mus musculus with 9 samples.

Results

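The carbonic anhydrase genes *Car1*, *Car2*, *Car3*, *Car4*, *Car8*, *Car12* and *Car13* were followed in the colon of 9 mice with DSS colitis, with or without electroacupuncture (EA), or without either. These 7 members were taken by gene symbol from the 27719 genes and loci of the count table, each symbol matched 1 row, and all 7 passed the filter on low counts that left 12566 genes for testing. Total RNA from colon tissue of C57BL/6J mice was copied into cDNA, amplified by PCR and read on an Oxford Nanopore PromethION instrument, with 1 library per mouse and 3 mice per group. The control group drank distilled water, and the DSS group drank 2.5% dextran sodium sulfate (DSS), which injures the colon epithelium, for 7 days. The DSS + EA group drank the same DSS and, from 5 days after the start of modeling, received EA at 2 Hz and 0.2 mA on the left and right ST36 points of the hind limbs, in daily sessions of 30 minutes on 5 days. Control and DSS mice were held for the same 30 minutes without EA, so the effects of the needles and of the current cannot be told apart. No genetic change is named for any group, and the ages of the mice are not given in the sources used here.

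Carbonic anhydrases are zinc enzymes that interconvert carbon dioxide with bicarbonate and a proton. In the colon they are known from absorptive cells of the surface, where the bicarbonate and protons they release feed the exchangers that take up sodium and chloride from the lumen. *Car1*, *Car2*, *Car3* and *Car13* encode cytosolic enzymes, *Car4* a lipid-anchored and *Car12* a membrane-spanning enzyme that face the outside of the cell, and *Car8* a relative without the enzyme activity, best known from Purkinje neurons. *Car1* and *Car2* are also abundant in red blood cells, and *Car3* in fat and skeletal muscle.

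Of the members, *Car13*, *Car1*, *Car3* and *Car2* lie side by side on chromosome 3 between 14641727 and 14900770 (GRCm38), a stretch of 259044 bases that holds 4 protein-coding genes, all of them carbonic anhydrases. *Car1* is on the minus strand (14766216 to 14808368), and *Car13* (14641727 to 14663002), *Car3* (14863512 to 14872523) and *Car2* (14886273 to 14900770) are on the plus strand. *Car8* lies on chromosome 4 (8143362 to 8239041, minus strand), *Car12* on chromosome 9 (66713686 to 66766845, plus strand) and *Car4* on chromosome 11 (84957786 to 84966044, plus strand). The coding stretch around the first pair of zinc-binding histidines is shown for each member because it holds the difference that sets *Car8* apart from the enzymes; it was read from GENCODE M21 transcripts on GRCm38, 5′ to 3′ along the gene, and capitals mark the codons of the first and second of these histidines or what stands in their place.
Car1, chr3:14776272-14776298, minus strand: actcagttcCATtttCACtggggcaac
Car2, chr3:14895060-14895086, plus strand: atccagtttCACtttCACtggggctca
Car3, chr3:14866841-14866867, plus strand: cgccaattcCATcttCACtggggctcc
Car13, chr3:14650697-14650723, plus strand: cggcagttcCATttgCACtgggggtca
Car4, chr11:84964158-84964184, plus strand: gtacagttgCACctgCACtggtcaaat
Car12, chr9:66747638-66747664, plus strand: gagcagctgCACttgCACtgggggaac
Car8, chr4:8221604-8221630, minus strand: tatgaagttAGAtttCACtggggaaga

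In 6 of the 7 genes both codons, CAT or CAC, encode histidine, while *Car8* has the arginine codon AGA at the first. Each stretch lies within 1 coding exon. Over their whole coding sequences the 21 pairs of members shared between 58.9% and 67.3% of aligned bases. The authors' use of strand and of reads that fit several genes is not given in the sources used here, so reads of the genes annotated inside *Car1* (*Gm16399*) and *Car8* (*Gm11799* and *Gm25355*), which have no row of their own in the table used here, could have been counted with them.

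Between 2627695 and 4235576 reads were counted per library, so that 3 counts correspond to between 0.708 and 1.14 CPM (counts per 1000000 of the library total, adjusted by TMM normalization). The tissue label was checked against markers: 11 pan-epithelial genes, led by *Lgals4*, summed to between 11118 and 12266 CPM in control, 2652 and 10935 CPM in DSS and 10239 and 11232 CPM in DSS + EA mice. In the edgeR quasi-likelihood test, 5 of these 11 genes were lower in DSS than in control mice and 4 were higher in DSS + EA than in DSS mice at an adjusted p-value under 0.05. Goblet cell genes, led in abundance by *Spink4*, were lower with DSS in 8 of 8 cases and higher in DSS + EA than in DSS mice in 6. Smooth muscle genes, led by *Tagln*, were lower in 7 of 8 and then higher in 2. Neutrophil genes, led by *S100a8*, were higher in 9 of 9 tested and then lower in 7. Of the enteric neuron and glia genes, led by *Uchl1*, 2 of 5 tested were higher and then 3 lower. Over all genes tested 40.9% passed in the first comparison (19.5% as lower genes) and 35.5% in the second (17.2% as higher genes). The first enteric neuron and glia count is near the share of all genes. Pancreatic acinar genes, led by *Cela2a*, summed to between 451 and 25608 CPM in DSS + EA mice, with the 2 highest values in DSS + EA mice 2 and 3, against between 41.8 and 260 CPM in the other 6 mice. *Cela2a* alone had 77.3 CPM in DSS + EA mouse 1, against at most 0.638 CPM in any control or DSS mouse. The part of these transcripts in the results was not tested. The members, the acid-base list and the genes named from other lists are also given without DSS + EA mice 2 and 3. Leaving out these 2 mice does not remove the whole acinar signal. Without them, with a single DSS + EA mouse assumed to vary like the mice of the other groups, the genes called between DSS + EA and DSS mice fell to 1 (higher) of the pan-epithelial, 1 (higher) of the goblet cell, 1 (lower) of the enteric neuron and glia, and 0 of the smooth muscle and neutrophil genes in edgeR.

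Compared with the control group, 6 of the 7 carbonic anhydrase genes were lower in the DSS group at an adjusted p-value under 0.05 (edgeR, Benjamini-Hochberg over all 12566 genes): *Car1*, *Car2*, *Car3*, *Car4*, *Car8* and *Car12*, of which *Car12* stood at 0.14 on the log2 scale, without passing, when counts were scaled to pan-epithelial genes. Of all genes tested, 40.9% passed this threshold and 19.5% did so as lower genes. *Car1*, *Car3* and *Car8* were also DEGs, which have a log2 fold change beyond 2.5 and an unadjusted P under 0.01, as 10.2% of all genes were (3.57% as lower DEGs). The 3 DSS mice all lay below the 3 control mice in the 6 genes, where the groups did not overlap in 52.0% of all genes tested. The median log2 fold change was -1.86 over the members and 0.02 over all genes tested. Less RNA of a gene in the whole tissue can come from fewer cells of a type or from less RNA per cell, and bulk libraries cannot tell these apart.

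Compared with the DSS group, the same 6 genes were higher in the DSS + EA group at an adjusted p-value under 0.05 (edgeR), where 35.5% of all genes passed and 17.2% passed as higher genes. The count fell to 2 without DSS mouse 2 and to 2 with counts scaled to pan-epithelial genes, and the call of *Car2* held in 1 of the 9 fits that leave out a mouse. *Car3* and *Car8* were DEGs, as 6.41% of all genes were (2.91% as higher DEGs). In 5 of the 6 genes the groups did not overlap, against 47.4% of all genes tested, and *Car1* was the exception. The median log2 fold change was 1.97 over the members and -0.02 over all genes. The 3 DSS mice serve in each of these comparisons, so a value that is low by chance in them enters both. Without DSS + EA mice 2 and 3, 1 mouse is left in that group and the spread comes from the other groups alone. The log2 fold changes were then 1.92 for *Car1*, 0.94 for *Car2*, 2.73 for *Car3*, 2.13 for *Car4*, 3.36 for *Car8* and 1.57 for *Car12*, of which *Car12* passed (adjusted p = 0.0482, edgeR). This fit tested 14715 genes in place of 12566, so its calls cover another set of genes.

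No member differed between the DSS + EA and control groups at an adjusted p-value under 0.05, in edgeR or in DESeq2, where 3.64% of all genes did in edgeR. At an unadjusted p under 0.05, 1 member (*Car3*) passed, against 17.0% of all genes. The median log2 fold change was -0.35 over the members and 0.00 over all genes. A p-value that misses the threshold does not show that the levels were equal, and the standard errors (SE) below, between 0.27 and 0.70, give the precision.

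**Figure D1:**
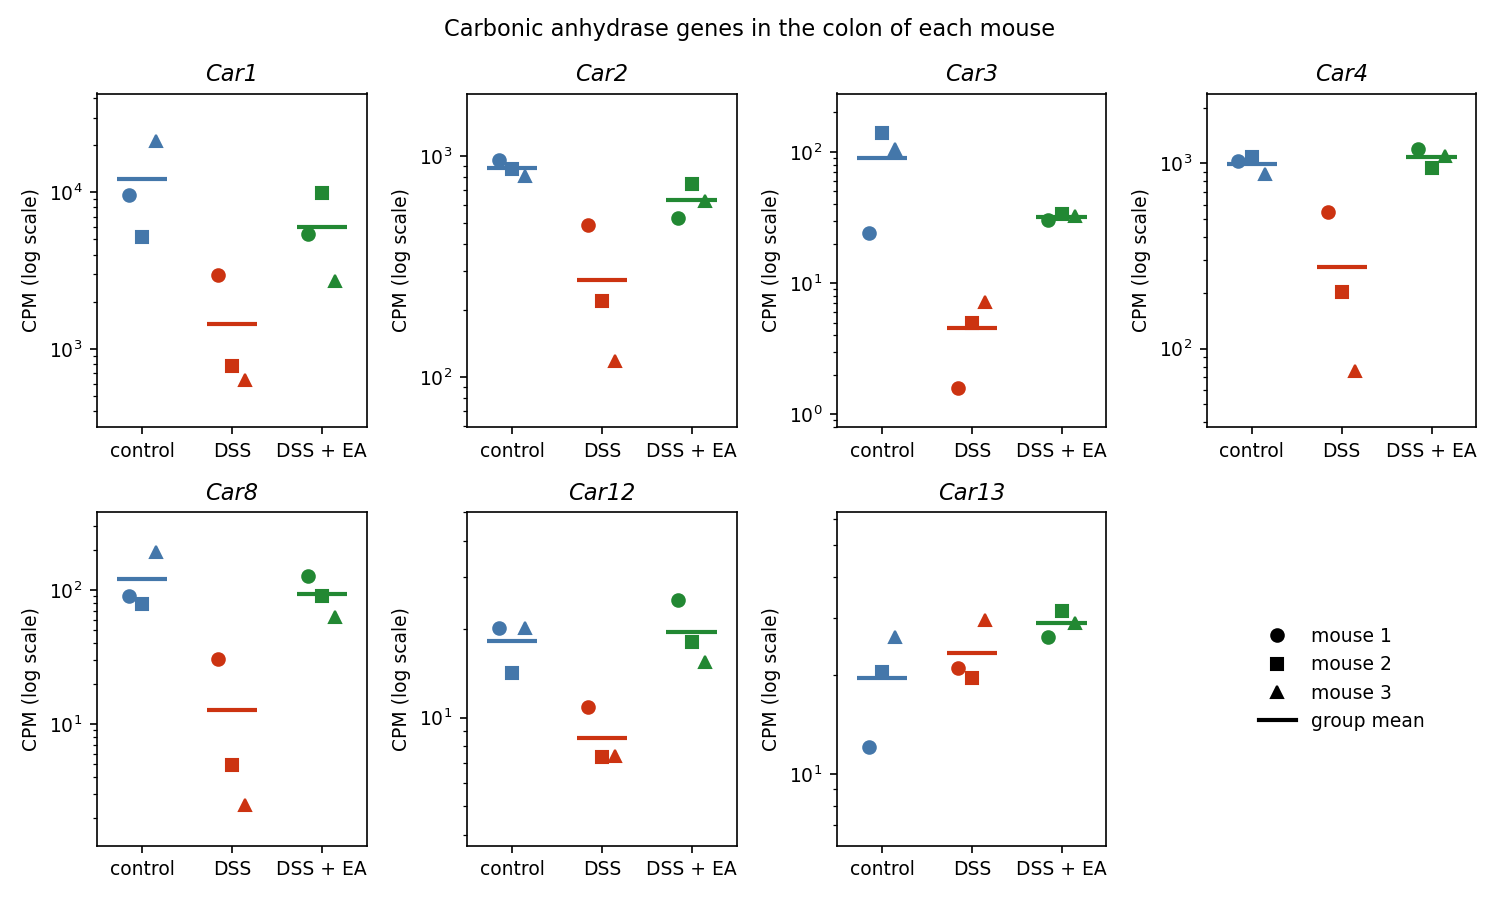
CPM of each member in each mouse, on a logarithmic axis with its own range in each panel. Circles, squares and triangles are mice 1, 2 and 3 of a group (different animals in each group) and the line is the group mean. The DSS mice lie below all control mice in every panel except *Car13*, and only in *Car1* and *Car13* do DSS and DSS + EA mice overlap.

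*Car1*, a cytosolic enzyme of the colon surface, was among the most abundant transcripts of the tissue. It had 9636, 5202 and 21357 CPM in the control mice, 2946, 777 and 633 CPM in the DSS mice and 5453, 9908 and 2718 CPM in the DSS + EA mice. Its counts ranked 3, 12 and 1 among all genes in the control mice, 52, 199 and 254 in the DSS mice and 8, 4 and 38 in the DSS + EA mice. Every control mouse lay above every DSS mouse, while DSS + EA mouse 3 lay just below DSS mouse 1. The group means were 12065 ± 8347 CPM in control, 1452 ± 1296 CPM in DSS and 6026 ± 3629 CPM in DSS + EA mice (SD, n = 3 each). *Car1* was 8.31-fold lower in DSS than in control mice, or -3.05 on the log2 scale (SE 0.75, edgeR adjusted p = 0.0096). It was higher in DSS + EA than in DSS mice by 2.05 on the log2 scale (SE 0.72, edgeR adjusted p = 0.049). This second call lies at the threshold: it was lost in DESeq2 (adjusted p = 0.0687), and in 5 of the 9 edgeR fits that leave out 1 mouse (control mouse 1, DSS mouse 2 or 3, or DSS + EA mouse 1 or 2), with log2 fold changes between 1.52 and 3.13 over the 9. DSS + EA mice were 2.00-fold below control mice in the fit, which did not pass (SE 0.70 on the log2 scale, edgeR adjusted p = 0.521).

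*Car2*, the fast cytosolic enzyme found in many epithelia, had 960, 873 and 813 CPM in the control mice, 485, 220 and 118 CPM in the DSS mice and 522, 749 and 628 CPM in the DSS + EA mice. The 3 groups did not overlap, with DSS mice lowest, DSS + EA mice between and control mice highest. The control mice were closer together (882 ± 74.4 CPM) than the DSS mice (274 ± 190 CPM) or the DSS + EA mice (633 ± 114 CPM; SD, n = 3 each). The log2 fold change was -1.68 between DSS and control mice (SE 0.42, edgeR adjusted p = 0.0106) and 1.21 between DSS + EA and DSS mice (SE 0.42, edgeR adjusted p = 0.0466). The second call held in 1 of the 9 fits that leave out a mouse, the one without DSS mouse 1, and its value ranged between 0.81 and 1.93. Between DSS + EA and control mice the value was -0.48 (SE 0.41, edgeR adjusted p = 0.608), and groups that do not overlap were found there in 32.2% of all genes.

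*Car3*, the slow cytosolic enzyme best known from fat and muscle, had the largest change of the members between DSS and control mice. It had 24.2, 140 and 106 CPM (96, 423 and 278 counts) in control mice, 1.60, 4.96 and 7.12 CPM (5, 23 and 23 counts) in DSS mice and 30.2, 33.7 and 32.4 CPM (100, 91 and 103 counts) in DSS + EA mice. The DSS mice lay below all others, and the DSS + EA mice lay close together above control mouse 1 and below control mice 2 and 3. The log2 fold change was -4.28 between DSS and control mice (SE 0.65, edgeR adjusted p = 0.000894) and 2.80 between DSS + EA and DSS mice (SE 0.64, edgeR adjusted p = 0.00866). Both calls held in all 9 fits that leave out a mouse. Between DSS + EA and control mice the value was -1.48 (SE 0.56, unadjusted p = 0.0247, adjusted p = 0.212, edgeR).

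Markers of other tissues that express *Car3* were read beside it. Several of those listed did not pass the filter on low counts, and most of those tested were called in DSS against control mice. Of 10 skeletal muscle genes, *Myh1*, *Myh4* and *Pvalb* were at 0 in all 9 mice and 2 were tested. *Acta1*, skeletal muscle actin, stood at -1.45 in DSS against control mice (adjusted p = 0.054, edgeR) and was higher in DSS + EA than in DSS mice (1.67, adjusted p = 0.0347, edgeR). *Ckm*, the muscle creatine kinase, had 24.7, 16.2 and 24.7 CPM in the control mice, 6.06, 0.431 and 1.24 CPM in the DSS mice and 17.5, 17.0 and 15.1 CPM in the DSS + EA mice. *Ckm* fell with DSS by 3.16 on the log2 scale and was 2.76 higher in DSS + EA than in DSS mice (adjusted p = 0.00312 and 0.00821, edgeR). Without DSS + EA mice 2 and 3 these muscle genes stood at 1.30 (*Acta1*) and 2.85 (*Ckm*) in the second comparison, and neither passed (adjusted p = 0.256 and 0.0859, edgeR). The 10 muscle genes summed to between 23.4 and 34.0 CPM in control, 4.96 and 12.4 CPM in DSS and 23.0 and 29.3 CPM in DSS + EA mice. *Ckm* gave most of this sum in control mice (mean 21.9 CPM). Of the genes not tested, *Mylpf* (means of 1.75, 1.92 and 1.80 CPM in control, DSS and DSS + EA mice) and *Tnni2* (1.85, 1.38 and 2.32 CPM) changed little. *Tnnt3* (0.084, 0.919 and 0 CPM) was highest in DSS mice. Of 10 adipocyte genes 7 were tested: with DSS 4 were lower and 1, *Fabp4*, was higher, and in DSS + EA against DSS mice 1 was higher, 1 (*Fabp4*) was lower and 5 did not pass. Without DSS + EA mice 2 and 3 none of the 7 passed in the second comparison in edgeR, and *Fabp4* stood at -1.46 (adjusted p = 0.0907). *Fabp4*, the most abundant of the list, had means of 53.2 CPM in control, 127 CPM in DSS and 56.1 CPM in DSS + EA mice. The means of *Plin4* (3.29, 3.10 and 3.42 CPM) and *Lipe* (6.27, 5.27 and 6.90 CPM) changed little over these groups. *Adipoq*, named after its values were seen, had 3.03, 25.1 and 16.3 CPM in the control mice, 0.638, 0.647 and 4.02 CPM in the DSS mice and 3.93, 7.04 and 5.35 CPM in the DSS + EA mice. Its control mouse 1 was lowest of the group, as in *Car3*. The adipocyte genes summed to between 83.7 and 245 CPM in control, 139 and 193 CPM in DSS and 121 and 145 CPM in DSS + EA mice. *Plin1* and *Lep* were at 0 in the DSS mice, but had at most 2 counts in any mouse, so this says little. The part of fat or muscle in the *Car3* values was not tested.

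*Car13*, the fourth cytosolic enzyme, did not follow the others. It had 12.1, 20.5 and 26.2 CPM in the control mice, 21.1, 19.6 and 29.4 CPM in the DSS mice and 26.3, 31.5 and 29.0 CPM in the DSS + EA mice. Control and DSS mice overlapped, as did DSS and DSS + EA mice, while the DSS + EA mice all lay above the control mice, though only just for DSS + EA mouse 1 and control mouse 3. The log2 fold changes were 0.26 (DSS against control, SE 0.29, adjusted p = 0.5), 0.31 (DSS + EA against DSS, SE 0.29, adjusted p = 0.424) and 0.57 (DSS + EA against control, SE 0.29, adjusted p = 0.363), all from edgeR, and the second turned to -1.07 with scaling to pan-epithelial genes. *Car13* thus differed in behaviour from *Car1*, *Car3* and *Car2*, its neighbours on chromosome 3, in the values themselves, but the difference between genes was not tested.

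*Car4*, which is held on the outer membrane by a lipid anchor, had 1037, 1079 and 875 CPM in the control mice, 548, 201 and 75.2 CPM in the DSS mice and 1193, 945 and 1093 CPM in the DSS + EA mice. DSS mice were lowest without overlap, and control and DSS + EA mice were intermixed. The means were 997 ± 108 CPM in control, 275 ± 245 CPM in DSS and 1077 ± 125 CPM in DSS + EA mice (SD, n = 3 each). The log2 fold change was -1.86 between DSS and control mice (SE 0.55, edgeR adjusted p = 0.0217) and 1.97 between DSS + EA and DSS mice (SE 0.55, edgeR adjusted p = 0.0203). Each call held in 6 of the 9 fits that leave out a mouse. The first was lost without control mouse 1 or 2 or DSS mouse 2 (adjusted p up to 0.0773), and the second without DSS mouse 2 or DSS + EA mouse 1 or 3 (adjusted p up to 0.0742). Without DSS mouse 1, the highest of its group, the values were -2.87 and 2.99. Against control mice the DSS + EA mice stood at 0.11 (SE 0.53, edgeR adjusted p = 0.943).

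*Car12*, a membrane-spanning enzyme, was low in every mouse, with 20.2, 14.2 and 20.2 CPM in the control mice, 10.9, 7.33 and 7.43 CPM in the DSS mice and 25.1, 18.2 and 15.4 CPM in the DSS + EA mice. The DSS mice lay below all others, and control and DSS + EA mice overlapped. The log2 fold change was -1.09 between DSS and control mice (SE 0.28, edgeR adjusted p = 0.0119) and 1.20 between DSS + EA and DSS mice (SE 0.28, edgeR adjusted p = 0.00985). Both calls held in all 9 fits that leave out a mouse, but not when counts were scaled to epithelial genes, as given below. Against control mice the DSS + EA mice stood at 0.11 (SE 0.27, edgeR adjusted p = 0.886).

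*Car8*, the relative without enzyme activity, had 90.3, 78.5 and 192 CPM (358, 238 and 504 counts) in control mice, 30.6, 4.96 and 2.48 CPM (96, 23 and 8 counts) in DSS mice and 128, 90.8 and 63.6 CPM (424, 245 and 202 counts) in DSS + EA mice. DSS mice were lowest without overlap, and their highest value was 12.4 times their lowest, the widest spread of any member within a group. The log2 fold change was -3.26 between DSS and control mice (SE 0.77, edgeR adjusted p = 0.00821) and 2.91 between DSS + EA and DSS mice (SE 0.77, edgeR adjusted p = 0.016). The first call held in all 9 fits that leave out a mouse, and the second in 8, being lost without DSS mouse 2 (2.50, adjusted p = 0.0566). Without DSS mouse 1 the values were -4.98 and 4.63. The value was -0.35 between DSS + EA and control mice (SE 0.69, edgeR adjusted p = 0.846). Of 8 enteric neuron and glia genes 5 were tested. At an adjusted p-value under 0.05 (edgeR), 2 were higher and 0 lower with DSS, where 40.9% of all genes passed. The log2 fold changes of the 5 ran from -0.26 to 1.59, and their part in the *Car8* values was not tested.

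**Figure D2:**
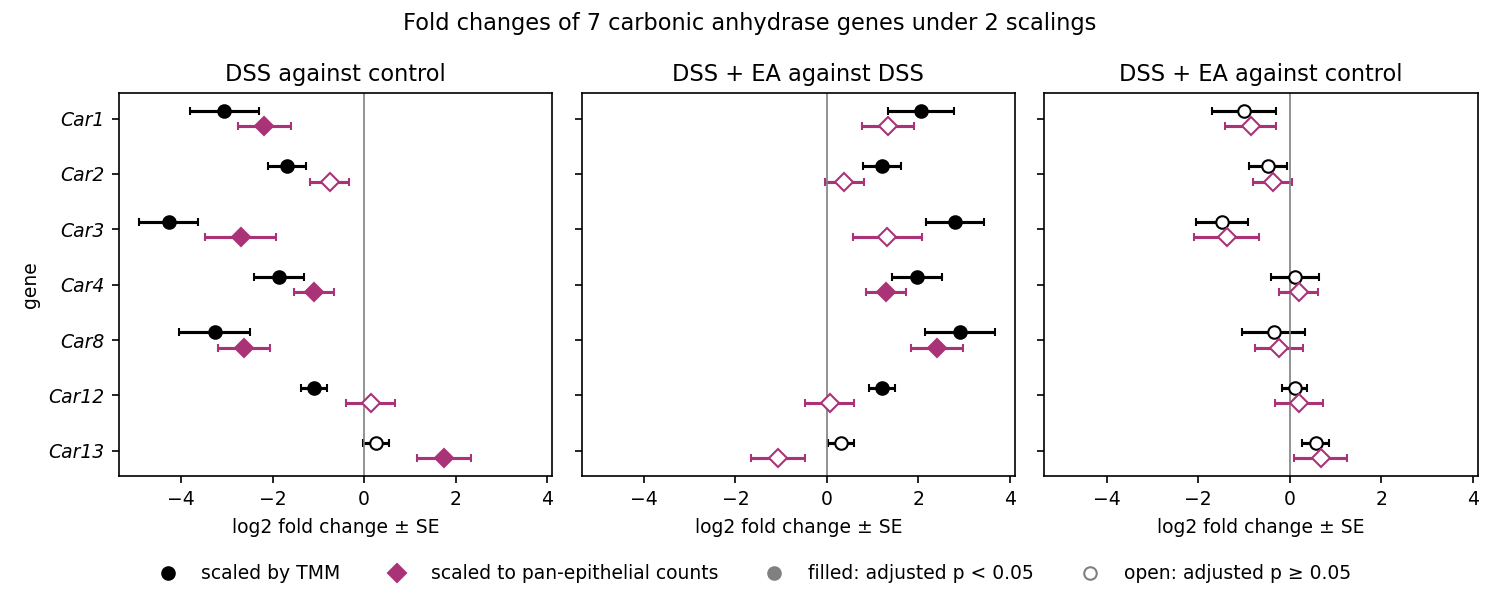
Log2 fold changes of the members with standard errors for the 3 comparisons, from edgeR with TMM scaling (black circles) and with counts scaled to 11 pan-epithelial genes (purple diamonds). Filled symbols have an adjusted p-value under 0.05, open symbols do not. Under the epithelial scaling *Car12* turns from -1.09 to 0.14 in DSS against control mice, and *Car13* turns from 0.31 to -1.07 in DSS + EA against DSS mice, while the other members keep their direction.

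Since 5 of the 11 pan-epithelial genes were lower with DSS and 6 did not pass, the counts were also scaled to these genes. In DSS mice 1, 2 and 3 the 11 genes summed to 10935, 4604 and 2652 CPM, the order in which *Car1*, *Car2*, *Car4* and *Car8* ranked in these mice. *Car3* ran in the reverse order (1.60, 4.96 and 7.12 CPM), and *Car12* and *Car13* followed neither order. *Lgals4* gave 6380 CPM of the sum in DSS mouse 1, above the control mice (5130 to 5359 CPM). In that mouse 8 of the 11 genes, *Epcam* and *Vil1* among them, lay below every control mouse and 3 (*Lgals4*, *Cdh1* and *Cdh17*) above every control mouse, so the sum depends on which epithelial genes are counted. Per 1000 pan-epithelial counts, *Car1* had between 468 and 1741 counts in control, 169 and 269 in DSS and 252 and 968 in DSS + EA mice, and *Car3* had between 2.16 and 12.6 counts in control, 0.146 and 2.69 in DSS and 2.689 and 3.29 in DSS + EA mice. For *Car3* the control and DSS mice thus overlapped on this scale, which they did not in CPM, and for *Car1* the DSS mice were below the control mice but overlapped with the DSS + EA mice. On this scale *Car2* had between 66.2 and 85.9 counts in control, 44.4 and 47.7 in DSS and 46.5 and 73.2 in DSS + EA mice. *Car4* had between 71.4 and 97.0 counts in control, 28.4 and 50.1 in DSS and 92.3 and 106 in DSS + EA mice. *Car8* had between 7.06 and 15.6 counts in control, 0.934 and 2.80 in DSS and 5.90 and 11.4 in DSS + EA mice. For *Car4* and *Car8* the DSS mice were again below all others, and for *Car2* they were below the control mice but overlapped with the DSS + EA mice. *Car12*, by contrast, had between 1.28 and 1.80 counts in control, 0.992 and 2.80 in DSS and 1.43 and 2.23 in DSS + EA mice, with all groups overlapping. *Car13* had between 1.08 and 2.14 counts in control, 1.93 and 11.1 in DSS and 2.34 and 3.08 in DSS + EA mice.

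**Figure D3:**
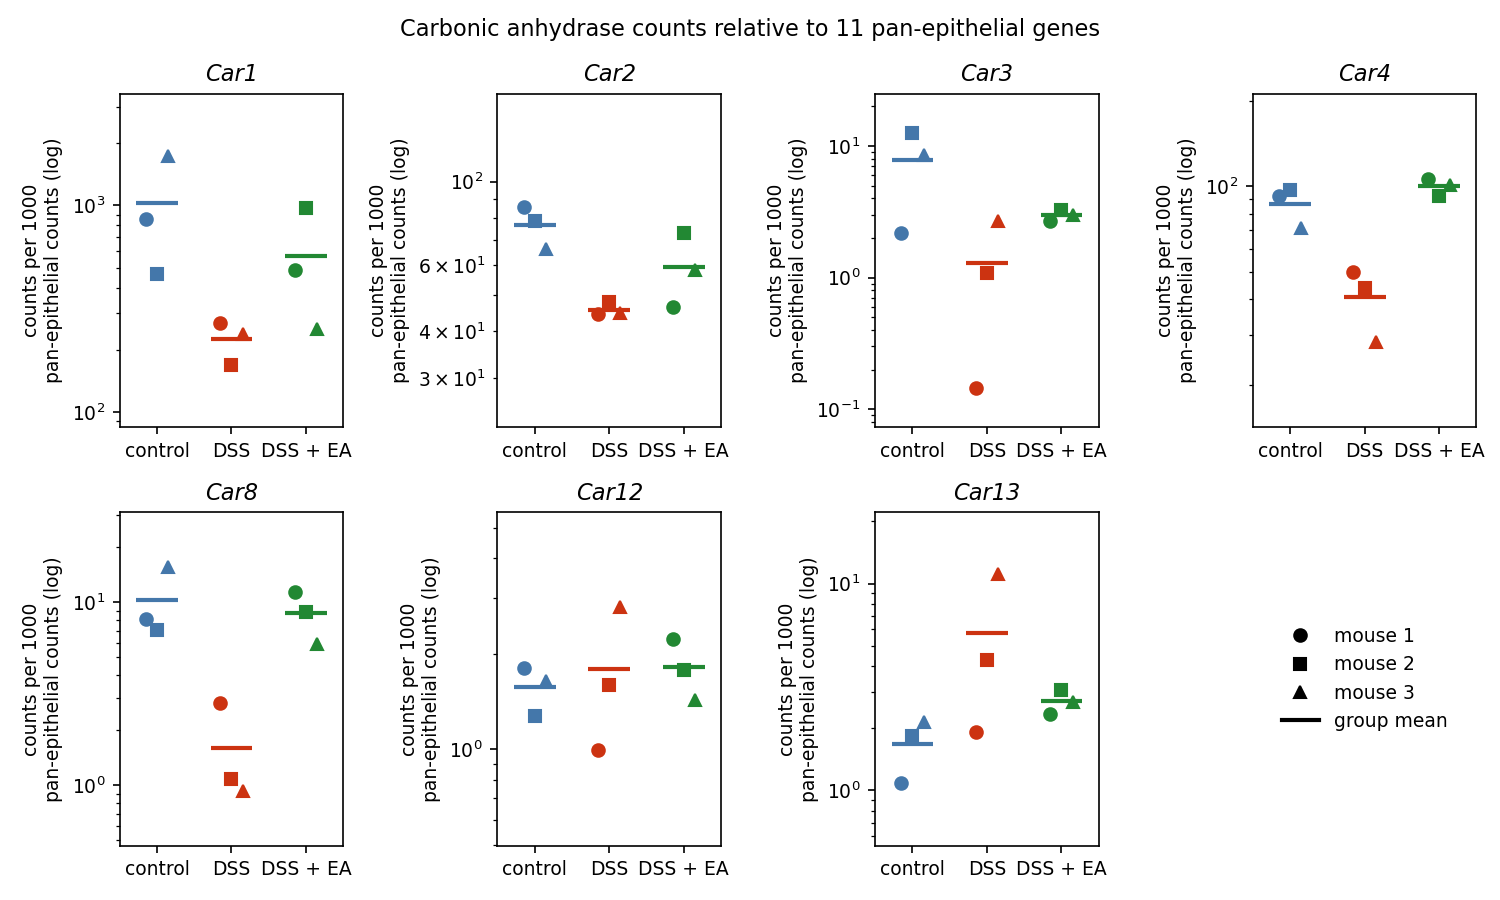
Counts of each member per 1000 counts of 11 pan-epithelial genes in each mouse, on logarithmic axes with their own range. Symbols are mice 1, 2 and 3 of a group and the line is the group mean. *Car1*, *Car2*, *Car4* and *Car8* remain lower in all DSS mice than in all control mice, *Car3* and *Car12* overlap between control and DSS mice, and *Car13* reaches 11.1 in DSS mouse 3.

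In edgeR with this scaling, *Car1* (log2 fold change -2.18, adjusted p = 0.00538), *Car3* (-2.70, adjusted p = 0.00889), *Car4* (-1.09, adjusted p = 0.0417) and *Car8* (-2.63, adjusted p = 0.00147) were lower in DSS than in control mice. *Car2* (-0.75, adjusted p = 0.135, edgeR) and *Car12* (0.14, adjusted p = 0.829) did not pass, and *Car13* was higher (1.75, adjusted p = 0.0206). Between DSS + EA and DSS mice, *Car4* (1.29, adjusted p = 0.0229) and *Car8* (2.40, adjusted p = 0.00378) passed in the same edgeR fit, and *Car1* (1.33, adjusted p = 0.0567), *Car3* (1.32, adjusted p = 0.147), *Car2* (0.38, adjusted p = 0.449), *Car12* (0.06, adjusted p = 0.93) and *Car13* (-1.07, adjusted p = 0.13) did not. This scaling moved the median of all genes to 1.38 in DSS against control and to -1.28 in DSS + EA against DSS mice. Relative to that median, *Car12* stood at -1.23 and 1.34, and *Car13* at 0.37 and 0.21. Since *Lgals4* was the most abundant of the 11 genes, the scaling was repeated without it, a choice made after seeing the data. *Car1*, *Car3* and *Car8* were then lower in DSS than in control mice (-1.91, -2.52 and -2.34, adjusted p = 0.00968, 0.00747 and 0.00241, edgeR), *Car4* no longer passed (-0.87, adjusted p = 0.107) and *Car13* was higher (1.97, adjusted p = 0.00836). *Car4* (1.15, adjusted p = 0.044, edgeR) and *Car8* (2.20, adjusted p = 0.00477) again passed between DSS + EA and DSS mice, and *Car12* stood at 0.36 and -0.07 in these comparisons.

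Surface colonocyte genes, led by *Lypd8* and the markers of the cells in which *Car1* and *Car4* are best known, were lower with DSS in 8 of 10 cases and higher in DSS + EA than in DSS mice in 6 of 10 (edgeR, TMM), or in 0 of 10 without DSS + EA mice 2 and 3. They summed to between 12910 and 18689 CPM in control, 1663 and 9571 CPM in DSS and 18663 and 19164 CPM in DSS + EA mice. *Lypd8* gave the largest part of this sum, with means of 7388 CPM in control, 3756 CPM in DSS and 14232 CPM in DSS + EA mice. Between DSS + EA and control mice the median log2 fold change of the 10 genes was -0.10, and 0 passed (edgeR). The part of these genes in the values of the members was not tested.

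Red blood cell genes moved in the other direction from *Car1* and *Car2*, which red cells also make. Of 7 erythroid genes 4 were tested, and these 4 were higher with DSS and lower in DSS + EA than in DSS mice (edgeR). Without DSS + EA mice 2 and 3, 2 of the 4 were lower in the second comparison. The beta globin gene *Hbb-bs* had 43.6, 51.1 and 36.5 CPM in the control mice, 1747, 740 and 916 CPM in the DSS mice and 85.2, 60.8 and 60.4 CPM in the DSS + EA mice. The erythroid genes summed to between 95.4 and 117 CPM in control, 1423 and 3789 CPM in DSS and 144 and 212 CPM in DSS + EA mice. The DSS mice were lowest of the 9 in *Car2* and had the most globin RNA. DSS mouse 1 had the most globin RNA and the most *Car1* and *Car2* of its group. The part of red blood cells in the *Car1* and *Car2* values was not tested.

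The levels of different genes were compared per kilobase of exon, although a Nanopore read can cover a whole cDNA molecule, so that reads may not grow with length. Mean CPM per kilobase fell from *Car1* (9667 in control mice) to *Car4* (507) and *Car2* (364) in every group, and the mice overlapped between neighbours of this order in the DSS group alone, for *Car4* and *Car2*. In control mice *Car3* (31.3 ± 20.7) and *Car8* (31.2 ± 16.1) followed and did not differ beyond their spread, then came *Car13* (8.52 ± 3.09), whose range overlapped with that of *Car3*, and *Car12* (2.39 ± 0.454; SD, n = 3 each). In DSS mice the order below *Car2* was *Car13* (10.2 ± 2.30), *Car8* (3.29 ± 4.05), *Car3* (1.59 ± 0.972) and *Car12* (1.12 ± 0.264), in which the ranges of *Car8*, *Car3* and *Car12* overlapped. In DSS + EA mice it was *Car8* (24.4 ± 8.40), *Car13* (12.6 ± 1.13), *Car3* (11.2 ± 0.62) and *Car12* (2.57 ± 0.654), in which *Car13* and *Car3* overlapped. *Car1* thus gave most of the carbonic anhydrase counts in every mouse, between 59.3% and 91.3% of those of the 7 members. Summed over the members, the level was 11780, 7406 and 23389 CPM in the control mice, 4043, 1235 and 873 CPM in the DSS mice and 7378, 11776 and 4579 CPM in the DSS + EA mice, with every DSS mouse below all others.

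Across the 9 mice, log2 CPM of *Car13* had Pearson's r between -0.27 and 0.11 with the other members, and the other 6 had r between 0.61 and 0.95 with each other. These values are descriptions over 9 libraries that share the group differences. The genes most like each member, by r of log2 CPM over the same 9 libraries, were *Defb37* and *Ugt1a7c* for *Car1* (both 0.99), *Gfpt1* and *Oit1* for *Car2* (both 0.99), and *Fgd4* and *Rab27a* for *Car3* (0.98 and 0.97). For *Car4* they were *Cyp2d34* (1.00) and *Ppp1r14d* (0.99), for *Car8* *Ppcs* and *Cdhr5* (both 1.00), and for *Car12* *Osbpl7* (0.98) and *Naip2* (0.97). *Car13* had no gene as close, with *Aldh1a2* (0.92) and *Cmtr1* (0.91) nearest.

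The other 9 carbonic anhydrase genes of the mouse were low or not called. *Car9*, a membrane-spanning enzyme known as a hypoxia target, was the only one to pass the filter, with 36.3, 42.9 and 54.8 CPM in the control mice, 65.7, 28.7 and 13.3 CPM in the DSS mice and 54.7, 54.5 and 81.2 CPM in the DSS + EA mice. DSS mice lay on both sides of the control mice. The log2 fold change was -0.31 between DSS and control mice (SE 0.47, edgeR adjusted p = 0.617) and 0.82 between DSS + EA and DSS mice (SE 0.47, edgeR adjusted p = 0.187). *Car5a* had no count in any mouse, and *Car5b*, *Car6*, *Car7*, *Car10*, *Car11*, *Car14* and *Car15* had at most 17 counts in a mouse. The highest of these was *Car5b*, a mitochondrial enzyme, with 1, 3 and 3 counts in control, 6, 17 and 6 in DSS and 2, 3 and 5 in DSS + EA mice.

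Genes that move bicarbonate, protons and chloride across the same cells were read as a list of 20, of which 14 were tested. With DSS 7 were lower and 2 higher (edgeR, adjusted p under 0.05), where 40.9% of all genes passed and 19.5% as lower genes. Between DSS + EA and DSS mice 6 were higher and 1 lower, where 35.5% of all genes passed and 17.2% as higher genes. Between DSS + EA and control mice 0 differed (1 in DESeq2). The median log2 fold change was -1.24 in the first comparison and 1.12 in the second, against 0.02 and -0.02 over all genes. *Slc26a3*, the chloride-bicarbonate exchanger of the colon surface, had 287, 309 and 201 CPM in the control mice, 114, 25.7 and 9.60 CPM in the DSS mice and 217, 280 and 220 CPM in the DSS + EA mice. The DSS mice lay below all others, in the same order as for *Car2* and *Car4*. Its log2 fold changes were -2.42 and 2.27 (adjusted p = 0.0187 and 0.028, edgeR).

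Of the list, 7 genes passed in both comparisons. Besides *Slc26a3* these were the proton pump subunit *Atp12a* (-3.89 and 4.15), the sodium-proton exchanger *Slc9a2* (-2.31 and 1.56), the chloride and bicarbonate channel *Cftr* (-2.06 and 1.57), the short-chain fatty acid transporter *Slc5a8* (-2.02 and 1.63) and the bestrophin channel *Best2* of goblet cells (-1.93 and 2.14), each lower with DSS and higher with DSS + EA on the log2 scale. For *Atp12a* and *Best2* the groups overlapped, since control mouse 3 had 1.52 and 3.80 CPM. The sodium-proton exchanger *Slc9a8*, known from the Golgi and the apical membrane, went the other way (1.14 and -0.78). With counts scaled to the pan-epithelial genes, 4 of the 14 were lower and 2 higher with DSS, where 6540 of all 12566 genes passed. In DSS + EA against DSS mice 3 were higher and 2 lower, where 5864 of all 12566 genes passed. The 7 genes that passed in both comparisons under TMM scaling kept their directions. Without DSS + EA mice 2 and 3, 0 of the 14 passed between DSS + EA and DSS mice in edgeR, with 1 mouse left in the group. The log2 fold changes were then 2.14 for *Slc26a3*, 3.21 for *Atp12a*, 1.92 for *Slc9a2*, 1.57 for *Cftr*, 1.99 for *Slc5a8*, 2.04 for *Best2* and -0.77 for *Slc9a8*.

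**Figure D4:**
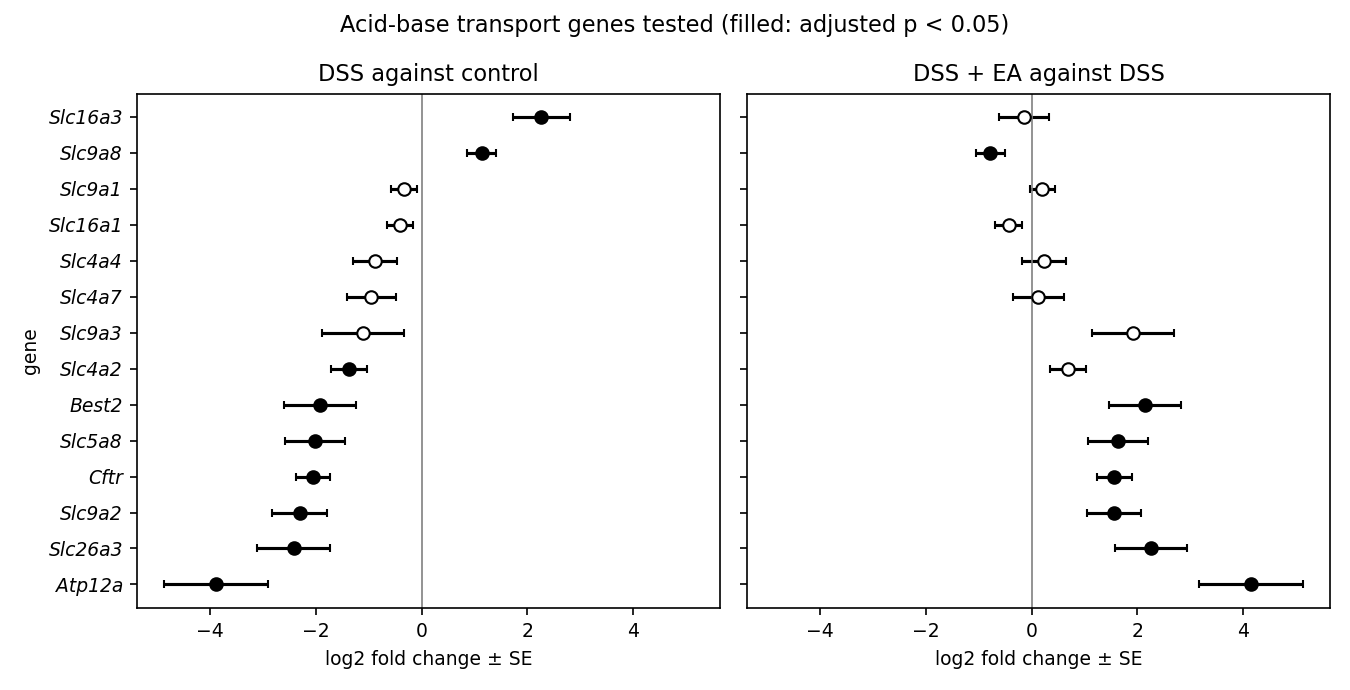
Log2 fold changes with standard errors of the 14 acid-base transport genes tested, from edgeR with TMM scaling, ordered by the first comparison. Filled circles have an adjusted p-value under 0.05: 7 lower and 2 higher in DSS against control mice, 6 higher and 1 lower in DSS + EA against DSS mice.

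The hypoxia response, the setting in which *Car9* and *Car12* are best known, was read from 10 genes, all tested. With DSS 3 were higher and 1 lower, and in DSS + EA against DSS mice 1 was higher and 1 lower (edgeR), against 40.9% and 35.5% of all genes called in these comparisons. *Adm*, the vasodilator peptide adrenomedullin, was higher with DSS (2.89 on the log2 scale, adjusted p = 0.000829) and lower in DSS + EA than in DSS mice (-1.78, adjusted p = 0.00785). *Ankrd37* went the other way (-2.38 and 1.97, adjusted p = 0.0073 and 0.021, edgeR). With counts scaled to the pan-epithelial genes 6 of the 10 were higher and 0 lower with DSS. In DSS + EA against DSS mice 0 were then higher and 3 lower. Under this scaling 6540 and 5864 of all 12566 genes passed in these comparisons, and the medians over all genes were 1.38 and -1.28. Without DSS + EA mice 2 and 3, 0 of the 10 passed in the second comparison, and *Adm* stood at -1.57 (adjusted p = 0.132, edgeR) and *Ankrd37* at 2.27 (adjusted p = 0.0994). *Car9* did not pass in either comparison, and *Car12* was lower with DSS under TMM scaling.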

How the data were processed

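The authors deposited whole-number read counts per gene for 9 colon cDNA libraries, without normalization; the submitters' processing notes name the build mm10 (the assembly GRCm38), and the aligner and the counting tool are not given in the sources used here. Of 27733 lines in the deposited table, 14 without counts were skipped. Groups and replicate numbers were taken from the sample labels. The test was the quasi-likelihood F test of edgeR 4.0.16 in R 4.3.3, with TMM normalization, filterByExpr by group and a prior count of 0.125; all 9 libraries entered a single fit with group as its term. Standard errors are those implied by the F statistic. An exact permutation test of 3 mice against 3 cannot go below p = 0.1 (two-sided), so p-values come from this fit. PCR copies were not told apart from molecules, so the value of 3 counts covers counting error only.

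The alternatives were DESeq2 1.42.0 (named in the paper's methods), RLE, library totals, scaling to pan-epithelial counts, no filter, a minimum mean of 20 counts, fits of the 2 compared groups only, a replicate block, each mouse left out, a log2 fold change beyond 1 for DEGs and, added after seeing the data, leaving out DSS + EA mice 2 and 3 and pan-epithelial scaling without *Lgals4*. Functions were tested on simulated counts with 200 changed genes. Positions and exon lengths are from GENCODE M21. Members, lists (other carbonic anhydrases, acid-base transport, hypoxia response and cell types) and the rule for naming genes were chosen with earlier results of these data known. The rule names the members, their family, the 2 genes most like each member by Pearson's r (log2 CPM, prior count 2), the acid-base and hypoxia genes called in both DSS comparisons (for hypoxia the 2 largest) and the most abundant gene of each cell type list. Others were named after their values were seen. Python 3.11.15, pandas 2.3.3, Biopython 1.88 and matplotlib 3.10.9 were used for the remaining steps.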

Additional observations from a re-analysis of the deposited data

How the results depend on the processing

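Over 21 member log2 fold changes and their alternatives, 399 values were computed: 343 kept direction and side of the threshold, 44 lost the call, 2 gained it and 10 changed sign. The changes of sign were those of *Car12* (0.14) in DSS against control and *Car13* (-1.07) in DSS + EA against DSS mice with pan-epithelial scaling, *Car12* (0.36 in DSS against control and -0.071 in DSS + EA against DSS mice) and *Car13* (-1.18 in DSS + EA against DSS mice) with that scaling without *Lgals4*, *Car13* in DSS against control mice without control mouse 1 (-0.011, the lowest of a range up to 0.49 over the mice left out), and, in DSS + EA against control mice, *Car12* without control mouse 2 (-0.04) or DSS + EA mouse 1 (-0.15, range up to 0.22) and *Car8* without control mouse 3 (0.16, range from -0.66) or without DSS + EA mice 2 and 3 (0.081). None of these passed the threshold there, and the cause was not tested.

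In DSS + EA against DSS mice, the members called numbered 6; pan-epithelial scaling, with or without *Lgals4*, gave 2 and 0 DEGs, and leaving out DSS + EA mice 2 and 3, which takes away samples, gave 1 (*Car12*) and 1 DEG (*Car8*). Leaving out 1 mouse gave between 2 and 6 called, the lowest without DSS mouse 2 (*Car3* and *Car12*), 3 without DSS + EA mouse 1, and between 1 and 3 DEGs, with 1 without DSS mouse 2 or 3 or DSS + EA mouse 1. In DSS against control mice these ranges were 5 to 6 called and 2 to 4 DEGs, and in DSS + EA against control mice 0 throughout. Pan-epithelial scaling without *Lgals4* gave 1 DEG (*Car3*) in DSS against control mice. A log2 fold change beyond 1 in place of 2.5 gave 6 DEGs in DSS against control and 4 in DSS + EA against DSS mice.

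With the replicate number as a block, 6 members were called in DSS against control mice (3 DEGs), 5 in DSS + EA against DSS mice (2 DEGs; *Car1* lost, adjusted p = 0.0697, edgeR) and 0 in DSS + EA against control mice. Same-numbered mice are different animals, and the deviations of their 9 pairs from the group means correlated between -0.16 and 0.11. Differently numbered mice had values between -0.20 and 0.26. No pairing by number was seen, but 3 mice a group are too few to settle it. Depth limits the low members: *Car3* had 5 and *Car8* 8 counts in their lowest DSS mouse.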
